A study of Mus musculus with 2 samples.

Results

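The genes of the cytosolic ribosomal proteins were followed on 2 arrays of mouse cells labelled lymphoma, 1 from a culture in medium with serum and 1 from a co-culture with endothelial cells, which form the inner lining of vessels. A gene was taken when a probe set of the array listed exactly 1 symbol and that symbol began with Rpl or Rps and a digit, or was Rplp0, Rplp1, Rplp2 or Rpsa. S6 kinases and symbols that end in -ps or contain rt were left out. The rule found 51 of the 18193 genes named on the array, 26 with symbols of the large subunit and 25 with symbols of the small subunit. Each gene is represented by the probe set with the highest mean intensity of both arrays, the brightness of labelled RNA bound to the probe set in arbitrary units. The label of neither sample names the lymphoma line, and the co-culture label names neither its medium, the source of the endothelial cells, nor a step to separate the cell types. With 1 array per group there are no replicates, so no difference has a test, an SD or a p-value.

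Ribosomes are built from ribosomal RNA and a fixed set of proteins, most of them present in a single copy per subunit. The large subunit forms the peptide bond and the small subunit reads the message. The mRNAs of these proteins begin with a run of pyrimidines, the terminal oligopyrimidine tract, through which mTOR and the RNA-binding protein LARP1 control their translation, so that the level of these mRNAs and the output of protein need not move together. Free ribosomal proteins of the large subunit, Rpl5 and Rpl11 above all, bind MDM2 and so link ribosome assembly to p53. Rapidly dividing cells, lymphomas among them, make many ribosomes.

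The genes matched by the rule were not all ribosomal protein genes. Rps19bp1 encodes a nucleolar protein that binds RPS19 and is no part of the ribosome, and Rps15a-ps6 is the symbol of a pseudogene, kept because it ends in ps6 and not in -ps. The other 49 are ribosomal proteins or their close paralogs. A further 29 symbols of the family were listed only on probe sets that name several genes at once, mostly together with pseudogenes or gene models, and are not valued gene by gene. Rplp1, Rpl3, Rpl5, Rpl10, Rpl23, Rpl36a and Rpl36al are among these 29.

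The same letters recur at the start of these genes, which the rule did not use. Promoter windows of 300 bases, 250 before the annotated transcript start and 50 from it, were available for 44 of the 51 genes in RefSeq (build GRCm38.p6). The core bound by ETS factors such as GABP, CGGAAG on either strand, was found in the windows of 31 of the 44 genes (70.5%), against 18.8% of 27025 genes with a window and 41.8% of 122 other genes with a mean intensity of 10000 or more. By symbol, the core occurred in 15 of 24 large subunit genes and 16 of 20 small subunit genes. Rps19bp1, which is no ribosomal protein, is counted among the 16 and the 31. The following stretches show the 60 bases before the start, written 5′ to 3′ in the direction of the gene, with the core or its reverse complement in capitals. Rpl38, Rps18 and Rpl37a hold 2 matches each, Rps6, Rps7 and Rps10 hold 1, and Rps26 holds none in this stretch. Rps26 has matches further upstream, beginning at -213 and -220 from the start, and is among the 31. The 31 refers to the whole 300 bases, and most of the 44 genes hold no match in these 60.
Rpl38 (chr11:114668520-114668579, plus strand): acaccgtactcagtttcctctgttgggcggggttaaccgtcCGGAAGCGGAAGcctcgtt
Rps18 (chr17:33955666-33955725, minus strand): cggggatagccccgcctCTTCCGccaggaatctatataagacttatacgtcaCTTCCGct
Rpl37a (chr1:72711200-72711259, plus strand): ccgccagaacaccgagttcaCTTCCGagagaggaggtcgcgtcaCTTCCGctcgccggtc
Rps6 (chr4:86857368-86857427, minus strand): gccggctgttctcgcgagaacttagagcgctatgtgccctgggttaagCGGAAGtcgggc
Rps7 (chr12:28635954-28636013, minus strand): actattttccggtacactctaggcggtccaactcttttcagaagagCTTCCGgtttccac
Rps10 (chr17:27635245-27635304, minus strand): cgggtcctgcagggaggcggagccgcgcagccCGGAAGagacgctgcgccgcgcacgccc
Rps26 (chr10:128626507-128626566, minus strand): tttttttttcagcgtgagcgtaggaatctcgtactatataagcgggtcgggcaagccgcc

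**Figure D1:**
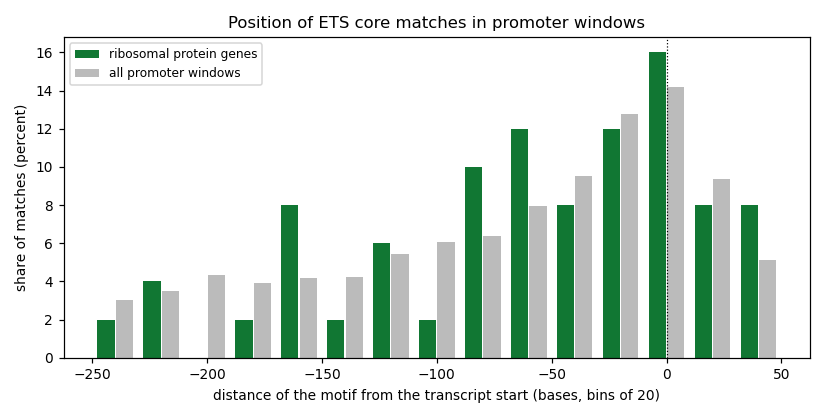
Share of CGGAAG matches (percent, vertical axis) by distance from the annotated transcript start (bases, horizontal axis, bins of 20) for 50 matches in ribosomal protein genes (green) and for matches in all promoter windows (grey). Of the 50 matches, 23 lay between 60 bases before and 20 bases after the start, and the distribution over all windows also peaks there.

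A run of at least 8 pyrimidines, C and T only, was present within 15 bases of the annotated start in 19 of the 44 genes (43.2%), against 13.9% of all genes with a window and 15.6% of the other genes at 10000 or more. These stretches of 30 bases are centred on the start and show the run in capitals for 7 genes, beside Rps3 and Rpl7l1, in which no such run was found.
Rpl7a (chr2:26910792-26910821, plus strand): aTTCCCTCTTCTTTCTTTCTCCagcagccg
Rpl35 (chr2:39005117-39005146, minus strand): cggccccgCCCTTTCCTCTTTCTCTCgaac
Rpl27a (chr7:109519180-109519209, plus strand): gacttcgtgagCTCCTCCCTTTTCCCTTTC
Rpl14 (chr9:120571502-120571531, plus strand): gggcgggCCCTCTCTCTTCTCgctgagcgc
Rps10 (chr17:27635230-27635259, minus strand): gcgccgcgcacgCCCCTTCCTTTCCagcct
Rps6 (chr4:86857353-86857382, minus strand): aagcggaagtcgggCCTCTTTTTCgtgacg
Rplp2 (chr7:141447636-141447665, plus strand): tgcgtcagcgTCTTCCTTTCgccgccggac
Rps3 (chr7:99483695-99483724, minus strand): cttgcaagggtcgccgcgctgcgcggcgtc
Rpl7l1 (chr17:46782642-46782671, minus strand): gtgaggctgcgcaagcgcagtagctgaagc
Both features were found in 14 genes and neither in 8. The shorter string CTTTC occurred in the same 30 bases in 25% of the genes, in 4.76% of all and in 4.92% of the 122 other bright genes. Other strings were searched on both strands of the 300 bases. CCGGAAG, which contains the core above, was in 47.7% of the ribosomal genes, 9.93% of all and 24.6% of the other bright genes. AAGATGGC, a YY1 site, was in 9.09%, 3.19% and 9.02%. GGGCGG, an Sp1 site, was in 59.1% and 38.2% but in 76.2% of the other bright genes, so that its share in the ribosomal genes was above that of all genes and below that of bright ones. TATAAA was in 13.6%, 15.7% and 9.02%, and CACGTG, the site of MYC, in 9.09%, 8.09% and 17.2%. Annotated starts can lie some bases away from the start in use, so a missing match says only that the letters are not in this window.

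The 2 arrays were comparable in scale but not in every control. The mean after trimming 2% of the values at each end was 500 on both, the medians were 36.9 and 50.7, and 47.3% and 52.7% of 45101 probe sets lay above the floor of 44.3, the median of all values of both arrays. The 3′ to 5′ ratios of beta-actin, Gapdh and Tfrc, which rise when RNA is shortened, were 3.56, 2.54 and 13.2 in serum and 2.05, 1.88 and 5.03 in co-culture. Their part in the differences that follow was not tested. Of 6 B cell markers 0 were above the floor in serum and 1 in co-culture, with summed intensities of 93.2 and 209. Of 5 leukocyte markers 2 were above it on each, with sums of 286 and 217, and Ptprc, the CD45 antigen, was below it on both (21.5 and 3.14). Of 8 endothelial markers 0 and 1 were above it, with sums of 146 and 219, and the defining Pecam1 (21.3 and 18.4) and Cdh5 (19.6 and 44.1) were below it on both. Of 5 fibroblast markers 4 were above it on each, with sums of 318 and 320, and of 4 epithelial markers 1 was, Epcam (59.6 and 128), with sums of 93.8 and 194. Of 3 T cell markers 0 and 1 were above it, with sums of 55.9 and 59.3, and the 1 erythroid marker was below it on both. All of these are dim signals, and both samples go by their labels.

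Ribosomal protein transcripts gave strong signals on both arrays, and nearly all of them differed little between the cultures. Of the 51 genes 47 exceeded the floor on either array, and such genes are called measured here. Of these, 33 had a mean intensity of 10000 or more, with serum intensities from 11938 to 19335 (median 14579) and co-culture intensities from 11036 to 20568 (median 15715). Intensities of different probe sets are not levels that can be ranked, so these ranges describe signals and not which gene was expressed most.

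**Figure D2:**
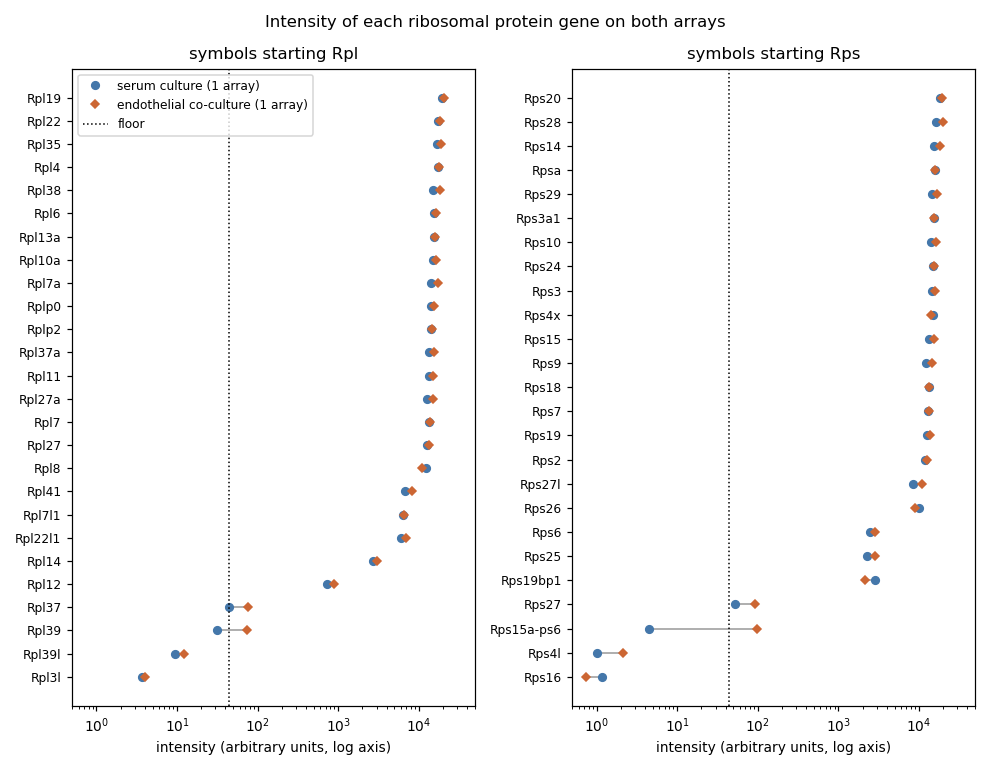
Intensity on both arrays (horizontal log axis, arbitrary units) for each of the 51 genes, in 2 panels by symbol. Circles are the serum culture, diamonds the co-culture, 1 array each, and the dotted line is the floor of 44.3. Most pairs of points nearly coincide above 10000, while 8 of the 9 genes with a mean intensity below 1000 lie near or below the floor.

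Only the pseudogene Rps15a-ps6 was at least 2-fold apart. Of the 47 measured genes 1 was higher in co-culture by 2-fold or more and 0 were lower by as much, where 4.6% of all 11542 measured genes were that much higher and 10.1% that much lower (14.7% either way). Scaling both arrays to the hybridisation spikes moved the split over all genes from 531 higher and 1162 lower to 357 and 1620, a floor at the percentile 25 moved it to 2053 and 1619, and adding a pseudocount of 16 instead of flooring to 881 and 1227. Rps15a-ps6 had intensities of 4.42 in serum and 98.9 in co-culture, at least 2.23-fold higher as the serum value was below the floor. Without Rps15a-ps6 and Rps19bp1, 0 of 45 measured genes were past 2-fold. Of the 144 other genes with a mean intensity of 10000 or more, 0 were past 2-fold in either direction.

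The median log2 difference, co-culture minus serum, was 0.13 over the 47 genes (quartiles 0.06 and 0.25) and -0.06 over all measured genes, but its sign depends on the scaling. With the hybridisation spikes brought to the same level, which lowers co-culture values by 0.19 on the log2 scale, the median was -0.06 against -0.25 over all genes, and after quantile normalization it was 0.03 against -0.10. As deposited, 42 of the 47 genes were above 0, with the spikes 19 were, and after quantile normalization 27 were. Relative to the median of all measured genes, 43 of 47 lay above it as deposited and with the spikes, and 40 after quantile normalization. No direction is therefore given for the family as such.

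**Figure D3:**
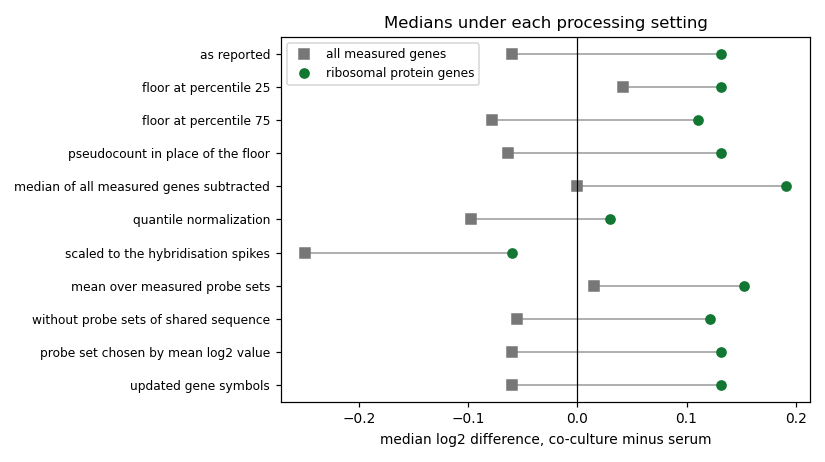
Median log2 difference, co-culture minus serum (horizontal axis), of the ribosomal protein genes (green circles) and of all measured genes (grey squares) under each processing setting (vertical axis). The green point lies to the right of the grey one in every setting shown, and it lies below 0 only with the spikes, at -0.06.

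Other bright genes carried most of the same offset. The 33 ribosomal protein genes at 10000 or more had a median log2 difference of 0.11 (quartiles 0.05 and 0.19), and the 144 other genes at that level had 0.08 (-0.06 and 0.19). After quantile normalization both medians were -0.00, and with the spikes they were -0.09 and -0.11. As deposited, the ribosomal genes were closer together. All 33 lay within 0.3 of 0 on the log2 scale, with an SD across genes of 0.11. Of the other genes 127 of 144 (88.2%) did, with an SD of 0.18. With the spikes not all 33 lay within 0.3 of 0, as Rpl8 was at -0.363 and Rps4x at -0.301. Genes are not replicates, and 1 array per group allows no test of this gap. Both arrays reached higher signals, up to 28221 and 32360 in the spike controls, than the highest ribosomal gene. Whether signals of 10000 or more stay proportional to the RNA was not tested.

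**Figure D4:**
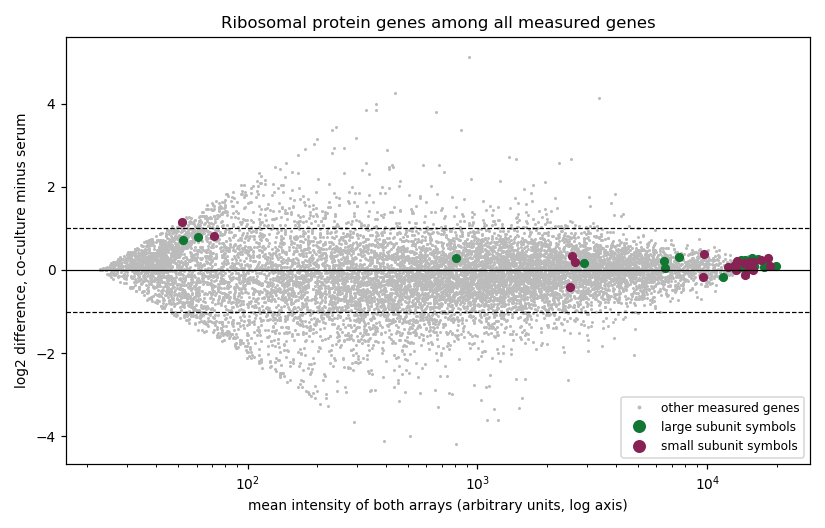
Log2 difference, co-culture minus serum (vertical axis), against the mean intensity of both arrays (horizontal log axis) for measured genes. Grey points are other genes, green and purple points are the large and small subunit symbols, and dashed lines mark 2-fold. The ribosomal genes cluster at the right edge between -0.17 and 0.28, and those past 0.5 lie at the dim left edge.

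In the large subunit 24 of 26 genes were measured, with a median log2 difference of 0.14 and a range from -0.17 to 0.80. The stalk proteins Rplp0 and Rplp2, which recruit elongation factors, went from 14311 to 15451 and from 14342 to 14783, log2 differences of 0.11 and 0.04. Rpl11, which with Rpl5 binds MDM2, went from 13281 to 14946 (0.17). Rpl4 and Rpl35, which line or border the tunnel for the growing chain, went from 17205 to 17988 (0.06) and from 17091 to 18725 (0.13). All 5 of these genes were above 0 as deposited and below 0 with the spikes (from -0.15 for Rplp2 to -0.02 for Rpl11).

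Rpl19, a structural protein of the subunit, had 19335 in serum and 20568 in co-culture (0.09). Rpl38, which in mouse embryos favours translation of Hox mRNAs, had 15152 and 18207 (0.26), and Rpl10a had 14920 and 16585 (0.15). Rpl13a, often used as a reference gene and also part of an interferon-induced translational block, had 15677 and 15856 (0.02). Its other probe sets were below 0, at -0.07, -0.18 and -0.18. By the probe set chosen for each gene, Rpl8, of the core near the peptidyl transferase centre, was the lone measured large subunit gene below 0 as deposited. It had 12428 and 11036 (-0.17).

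In the small subunit 23 of 25 genes were measured, with a median of 0.11 and a range from -0.42 to 1.16. The ends of this range belong to Rps19bp1 and Rps15a-ps6, which are no ribosomal proteins. The others ranged from -0.16 (Rps26) to 0.81 (the dim set of Rps27). Rpsa, also known as the precursor of a laminin receptor, had 15749 and 15802 (0.00), and Rps3, at the entry of the mRNA channel, had 14579 and 15737 (0.11). Rps20 had 18081 and 19254 (0.09), Rps29 had 14705 and 16822 (0.19), and Rps14 had 15577 and 18535 (0.25). Their probe sets are marked _x_at, for sequence shared with other transcripts. Without sets of shared sequence Rps20 had 0.16, and Rps29 and Rps14 had no value. Rps28 had 16505 and 20019 (0.28), the highest difference among the 33 bright genes of both subunits. Rps6, the protein that S6 kinases phosphorylate, was read by a probe set of middle intensity, 2483 and 2846 (0.20).

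The measured small subunit genes below 0 were few. Rps26, mutated in Diamond-Blackfan anaemia, had 10148 in serum and 9053 in co-culture (-0.16), Rps4x, the X-linked form of RPS4, had 15136 and 14029 (-0.11), and Rps18 had 13385 and 13276 (-0.01). The lowest value of all, -0.42, belonged to Rps19bp1 (2877 and 2151), which is no ribosomal protein. Rps19, the partner it is named for and the gene most often mutated in Diamond-Blackfan anaemia, had 12638 and 13629 (0.11).

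The genes with the largest log2 differences were read by dim probe sets. Rps27 had 52.0 in serum and 91.3 in co-culture (0.81), Rpl37 had 44.3 and 76.9 (0.80) and Rpl39 had 31.1 and 73.4 (0.73), all close to the floor. Rps16 lay below the floor on both arrays (1.17 and 0.74), and Rpl12 had 729 and 890 (0.29). The platform also lists each of these 5 symbols on probe sets with several symbols. The brightest of those sets, 1 per symbol, had intensities between 10635 and 19198 and log2 differences between 0.18 and 0.27. The dim values thus describe the probe sets that list 1 symbol and say little of the mRNA.

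Probe sets that name several genes gave a like picture for the family as a whole. The 110 such sets that list a ribosomal protein symbol had, among the 106 above the floor, a median log2 difference of 0.13 (quartiles 0.06 and 0.23). The 74 of them at 10000 or more ranged from -0.16 to 0.34. Of the 106, 4 were higher by 2-fold or more and 0 lower by as much, and those 4 had mean intensities from 115 to 262.

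Paralogs of ribosomal proteins split into measured and unmeasured ones. Rpl3l, the form of striated muscle (3.65 and 3.96), Rpl39l, the form of the male germline (9.34 and 12.4), and Rps4l, a copy of RPS4 (1.01 and 2.13), were below the floor on both arrays. Rpl22l1, the paralog of Rpl22, had 6013 and 6975 (0.21), and Rpl22, which binds RNA and is needed for T cell development, had 17487 and 18532 (0.08). Rpl7l1 had 6440 and 6647 (0.05, with 0.41 and -0.11 by other probe sets), beside Rpl7 with 13363 and 13918 (0.06). Rps27l, a p53 target whose protein also binds MDM2, had 8349 and 10943, and its log2 difference of 0.39 was the highest among the ribosomal genes with an intensity above 1000; its other probe sets gave 0.17 and 0.34, and the spikes lower each by 0.19.

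Probe sets of 1 gene gave differing values, and bright sets spread less than the rest. The 51 genes had 107 probe sets with 1 symbol, and 22 genes had at least 2 that were measured. The pooled SD of the log2 difference between probe sets of a gene was 0.21 over these 22 genes, against 0.60 over 5478 genes of the whole array. Among sets at 10000 or more on both arrays it was 0.06 over 13 genes. All measured probe sets were above 0 for 14 of the 22 genes and of both signs for 8. This SD describes how far probe sets of 1 gene differ from each other, for whatever reason. It leaves out any shift shared by a whole array, such as the scaling, and how much cultures vary.

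Dimmer probe sets of the same gene spread more widely than bright ones, to both sides. In 7 of 15 genes with both kinds the dimmer sets had the higher mean difference. Over the probe sets of all 51 genes, the 56 sets at 10000 or more had a median of 0.10 and ranged from -0.17 to 0.28. The 43 other measured sets had a median of 0.21 and ranged from -0.48 to 1.16. Those 43 include sets of genes without a bright set, such as the only set of Rps15a-ps6, at 1.16. These 2 medians thus do not compare sets of the same gene. Rpl35 had 5 bright sets between 0.03 and 0.13 and a dim one, from 288 to 502, at 0.80. Rps9 had a bright set at 0.22 and dimmer ones at 0.59 and 0.80, and Rpl7 had bright sets at 0.04 and 0.06 and a dimmer one, from 3601 to 6156, at 0.77. Rpl22 went the other way, with bright sets at 0.11 and 0.08 and a dimmer one at -0.48. The 3′ to 5′ ratios given above differed between the arrays as well, and their part in these gaps was not tested.

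**Figure D5:**
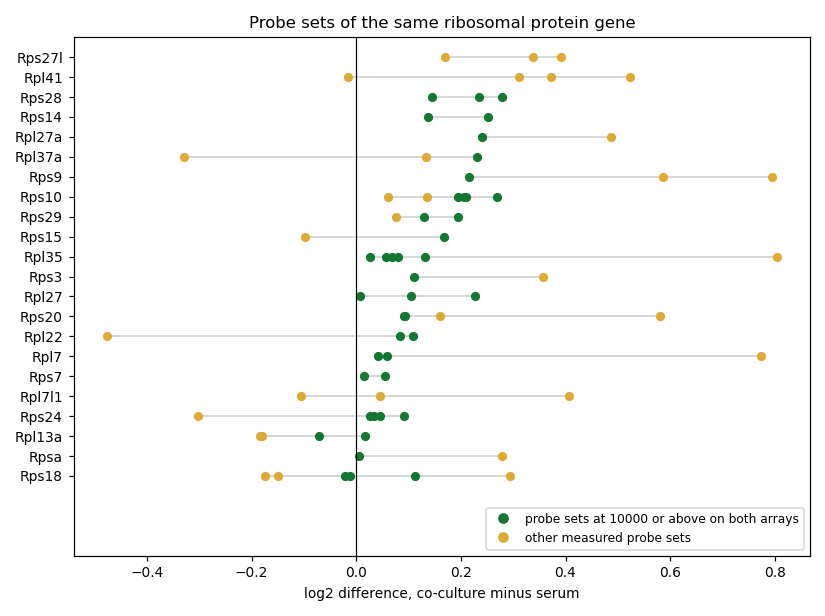
Log2 difference, co-culture minus serum (horizontal axis), of each measured probe set for the 22 genes with at least 2 (vertical axis). Green points are sets at 10000 or more on both arrays and yellow points are other measured sets. The green points stay between -0.07 and 0.28, while yellow points spread from -0.48 to 0.80.

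Groups of ribosomal proteins with other known roles held 0 genes past 2-fold. Of 12 genes of Diamond-Blackfan anaemia with a probe set, 12 were measured and 0 were past 2-fold, with a median of 0.12 as deposited and -0.07 with the spikes. Of 6 genes whose proteins bind MDM2, 0 were past 2-fold, with a median of 0.21 as deposited and 0.02 with the spikes. Rpl5 is not among these 6, and Rps27 is, by its dim probe set. Genes with the ETS core had a median of 0.17 (29 measured, from -0.42 to 0.81) and those without it 0.11 (12 measured, from -0.11 to 0.22). Genes with the pyrimidine run had 0.19 (19 measured, from -0.16 to 0.81) and those without 0.11 (22 measured, from -0.42 to 0.80). The ranges overlap widely. The values 0.81 and 0.80 come from the dim sets of Rps27 and Rpl37, and -0.42 from Rps19bp1.

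The wider machinery of ribosome production was mostly within 2-fold too, as were most genes of the array, with 14.7% of all 11542 measured genes past it. Fau, which encodes a small subunit protein fused to a ubiquitin-like protein, had 13857 and 15347 (0.15). Of 16 other mRNAs with a terminal oligopyrimidine tract 0 were past 2-fold, with a median of 0.10 as deposited and -0.09 with the spikes. Among them the elongation factors Eef1a1 (14352 and 14015, -0.03) and Eef2 (9481 and 9558, 0.01) were nearly level, while the splicing protein Hnrnpa1 had 3810 and 6684 (0.81; 0.99 and 2.53 by other probe sets) and the host of small nucleolar RNAs Snhg1 had 7628 and 10709 (0.49). Of 40 ribosome biogenesis factors 0 were past 2-fold, with a median of 0.12 (-0.07 with the spikes) and the largest value for the methyltransferase Ftsj3 (831 and 1528, 0.88) and the small subunit assembly factor Ltv1 (1187 and 1893, 0.67).

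RNA polymerase I, which transcribes ribosomal RNA, had 0 of 13 genes past 2-fold, beside 14.7% of all measured genes. Its median was 0.40, but 0.12 with the floor at the percentile 75 and 0.21 with the spikes. Its activator Ubtf had 2743 and 4653 (0.76; -0.04 by another probe set) and its catalytic subunit Polr1a had 1804 and 1055 (-0.77; 0.57 and 0.11 by other probe sets). Chaperones of ribosomal proteins had 0 of 6 past 2-fold and a median of -0.00, with Heatr3 at 0.85 (3053 and 5515) and Pdcd2, a chaperone of RPS2, at -0.64 (4618 and 2971). Of 11 genes that rescue stalled ribosomes or sense their collision 0 were past 2-fold, 10 were below 0, as were 6241 of 11542 measured genes of the whole array, and the median was -0.26, or -0.08 with the mean over measured probe sets. The ubiquitin ligases Rnf10 and Zfp598 had -0.61 (0.38 by another probe set of Rnf10) and -0.54, and the recycling factor Abce1 had 0.40.

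Past 2-fold were 2 of 15 measured genes that control ribosomal protein synthesis, both lower, beside 10.1% of all measured genes at least 2-fold lower. The list's median was -0.28, but -0.08 with the floor at the percentile 75 and -0.12 with the mean over measured probe sets. Tsc1, which with Tsc2 restrains mTOR, had 1980 in serum and 783 in co-culture, 2.53-fold lower, and dim probe sets gave -0.59 and -0.56 on the log2 scale. Tsc2 had 616 and 709 (0.20). Pdcd4, which blocks the initiation helicase, had 4916 and 2095, 2.35-fold lower. Mtor itself had 2233 and 1403 (-0.67; 0.16 and 0.15 by dimmer probe sets), Larp1 had 4941 and 6866 (0.47) and Eif4ebp1, a repressor of initiation, had 5790 and 4773 (-0.28). Myc, a driver of ribosomal gene transcription, was below the floor on both arrays (23.8 and 9.34), and its partner Max had 2024 and 3782 (0.90).

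The ribosomal proteins of mitochondria, a separate family that serves the organelle's own ribosomes, had 0 of 76 measured genes past 2-fold and a median of -0.13, with 21 above 0. Translation factors named Eif or Eef had 0 of 57 past 2-fold and a median of -0.01, with 27 above 0. Over the whole array 5301 of 11542 measured genes were above 0, and 14.7% were past 2-fold. Of 4411 genes outside the cytosolic family with mean intensities between 1000 and 10000, 95 were at least 2-fold higher and 207 lower. With the spikes the median was -0.32 for the mitochondrial family, -0.20 for translation factors, -0.06 for the cytosolic family and -0.25 over all genes. The cytosolic family had 42 of 47 above 0 as deposited and 19 with the spikes. Its brighter probe sets and the scaling described above stand beside that count, and no test of the difference between the families is possible with 1 array per group.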

How the data were processed

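Total RNA was labelled with biotin and hybridised to 1-colour arrays, 1 per group, per the labels' protocols. The authors deposited linear intensity values per probe set. Array software, background correction and normalization: not given in the sources used here; the equal trimmed means are what global scaling would leave, which is inferred from the values. Genes were named by GEO's platform annotation: 34945 probe sets had 1 symbol, 932 several and 9160 none, and 64 controls were left out. Values below the floor, the percentile 50 of all values (44.3), were set to it before log2; 27 bacterial controls absent from the sample reached at most 21.7. The deposited intensities thus became log2 differences, co-culture minus serum, and where a floored value enters a fold, that fold is a minimum. Past 2-fold means a log2 difference of at least 1 in size.

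The genes, lists, limits of 10000 and 1000 and promoter strings were chosen with earlier results of these data known. Named genes were those past 2-fold, the 5 highest and 5 lowest differences, the 5 brightest and 5 dimmest of each subunit, a preset list, and, from other lists, those past 2-fold or the largest; further genes were chosen after their values were seen. Of the preset list, Rps27a and Rpl10l, and of the other genes Rack1 and Rps6kb1, are not analysed here. There were 10 alternative settings and 1 added after seeing the data. Steps were tested on simulated data. Python 3.11.15, numpy 2.4.6 and pandas 2.3.3 were used. The number of arrays limits the precision.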

Additional observations from a re-analysis of the deposited data

Results flagged for a closer look

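The control probe sets for the RNA of the small ribosomal subunit, which no comparison above uses, were higher on the co-culture array. The set for its 5′ end had 660 in serum and 2357 in co-culture, a log2 difference of 1.84, the set for its middle had 9435 and 14883 (0.66), and the set for its 3′ end had 685 and 980 (0.52). The labelling starts from a primer for poly(A) tails, and the difference was not tested, as there is 1 array per group.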

How the results depend on the processing

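The count of ribosomal protein genes at least 2-fold higher was 1 as reported. It was 2 with the floor at the percentile 25, where Rpl39 joined with a log2 difference of 1.24, 0 with the floor at the percentile 75, and 0 when the 2 genes that are no ribosomal proteins were left out, a setting chosen after seeing the data. The count at least 2-fold lower was 0 in all 11 alternatives. Of the 51 chosen probe sets, 12 were marked _x_at and 2 _s_at, for sequence shared with other transcripts. Without such sets 42 genes were measured, with a median of 0.12. Rpl37, Rpl38, Rps2, Rps14 and Rps29 then had no value. Rps24 had -0.30 and Rps9 had 0.59, both by dimmer sets. The median of the family ranged from -0.06 with the spikes to 0.19 with the median of all genes subtracted, that of the large subunit from -0.05 to 0.20 and that of the small subunit from -0.08 to 0.17. With the spikes all 3 medians change sign, as do those of the Diamond-Blackfan genes (-0.07), the biogenesis factors (-0.07) and the other mRNAs with a terminal oligopyrimidine tract (-0.09). Over single genes, 11 of 506 values under an alternative moved by more than 0.21, the SD between probe sets of 1 gene, in 9 genes. Over gene lists 1 of 143 medians did, that of RNA polymerase I with the floor at the percentile 75 (0.12). Both counts include settings whose shift is below 0.21 by design. The spikes lower co-culture values by 0.19, and subtracting the median of all genes, -0.06, shifts them less. The counts thus say little of signs: 42 of 47 genes were above 0 as deposited and 19 with the spikes. No paired analysis was possible because each group has 1 array. Signals near the floor limit Rps27, Rpl37, Rpl39 and Rps15a-ps6.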
